A study of Mus musculus with 6 samples.

Results

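Chaperones of the cytosol and of the endoplasmic reticulum (ER) were examined in basal cells of the mouse epidermis through 10 genes, picked by symbol from the 24354 genes of the deposited table. The cytosolic genes were Hspa1a, Hspa1b, Hspa8, Hsp90aa1, Hspb1, Dnajb1 and Hsph1, and the ER genes were the chaperones Hspa5 and Hsp90b1 and the transcription factor gene Xbp1. All 10 reached the filter for testing, a mean of 1 FPKM (fragments per kilobase of transcript, relative to a library total) over the libraries. RNA was sequenced from E18.5 epidermal cells with high α6 integrin, a laminin receptor subunit on basal keratinocytes, collected by flow sorting. There were 3 wild-type (WT) libraries and 3 from mice homozygous for Pik3ca H1047R, an activating change in the catalytic subunit of phosphoinositide 3-kinase, here called mutant. Both groups carry the strain label C57BL6. The labels name no Cre driver and do not say which cells carry the allele or whether each library is a separate animal or pool, so the p-values describe the spread between these libraries, which may be technical.

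HSP70 chaperones bind exposed hydrophobic stretches of unfolded proteins, J-domain proteins such as Dnajb1 deliver substrates to them, and nucleotide exchange factors such as Hsph1 release the substrates. HSP90 finishes the folding of kinases and receptors, and small heat shock proteins such as Hspb1 hold unfolded proteins until HSP70 takes them over. Heat shock factor 1 drives the inducible cytosolic genes through heat shock elements in their promoters. In the ER, Hspa5 (BiP) and Hsp90b1 (GRP94) do the corresponding work, and the unfolded protein response raises their genes through the sensors Ern1, Eif2ak3 and Atf6 and the factor Xbp1.

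Mutant libraries held less mRNA of the stress-inducible HSP70 genes Hspa1a and Hspa1b and of Hspb1, and more of the HSP70 partner genes Dnajb1 and Hsph1. Of the 10 genes, 7 were lower and 2 higher in the mutant by limma (adjusted p under 0.05), and Hsp90b1 did not pass. Over all 11385 genes tested, 22.8% were lower and 23.2% were higher. The median difference of the 10 genes was -0.54 on the log2(FPKM + 1) scale, against 0.01 for all genes tested. The WT and mutant values did not overlap for any of the 10, which was also so for 56% of all genes tested, and the exact two-sided permutation test gave each gene p = 0.1, the smallest that 3 against 3 libraries allow.

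**Figure D1:**
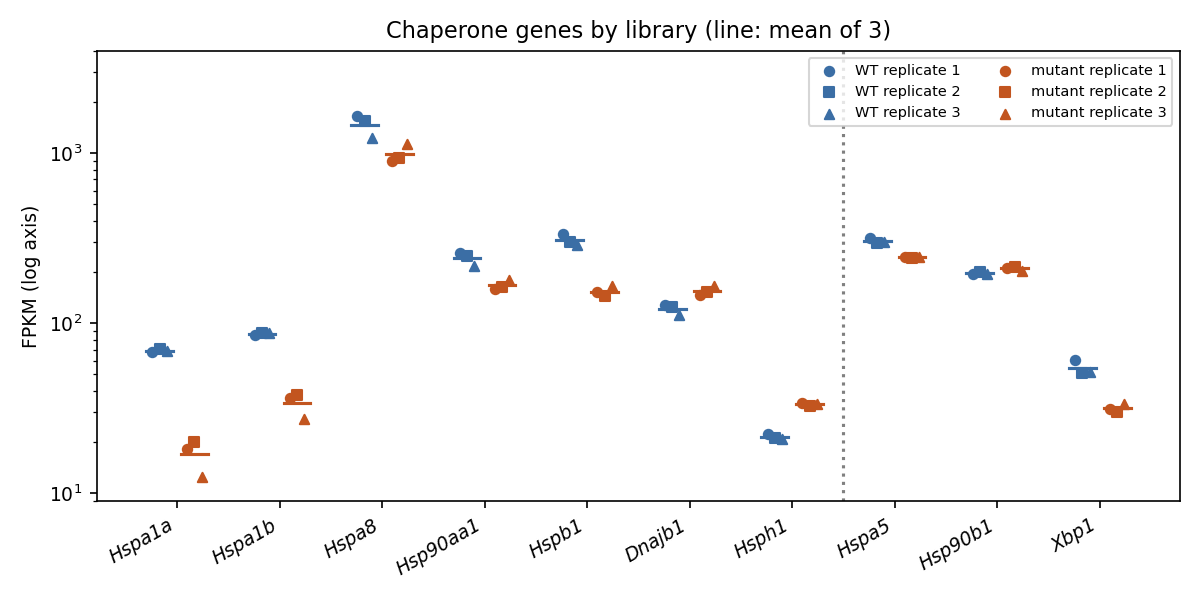
Level of each of the 10 chaperone genes in each library, in FPKM on a log axis, with WT in blue, mutant in orange and a line at the mean of 3. Hspa1a falls from 68.93 to 16.96 FPKM, whereas Hsph1 and Dnajb1 lie higher in all 3 mutant libraries, and the dotted line separates cytosolic from ER genes.

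Total FPKM ran from 656761 to 767148 in WT and from 538627 to 651769 in mutant libraries, read totals were not used here, and genes shorter than 200 bases took 0.659% to 1.89% of the WT and 2.11% to 8.26% of the mutant totals. The keratins Krt5 and Krt14 of basal cells were the leading markers in every library, and the 6 basal markers summed to 23000 to 23600 FPKM in WT and 20200 to 23200 FPKM in mutant libraries. Most of that sum is Krt5 and Krt14, which were not called. The other basal markers were mostly lower: 3 of the 6 fell by limma, Itga6 (log2 difference -0.41), Itgb4 (-0.75) and Col17a1 (-0.36), and none rose. Itga6 encodes the α6 integrin used for sorting. The 4 suprabasal markers summed to 3770 to 4540 FPKM in WT and 11600 to 14200 FPKM in mutant libraries, and 2 of them, Krt1 and Krt10, rose. The higher sum came from these 2, with means of 1489 and 5730 FPKM for Krt1 and 1704 and 5899 FPKM for Krt10. Krtdap (927.9 and 1018 FPKM) and Sbsn (137.1 and 121.6 FPKM) were not called. Fibroblast markers summed to 411 to 548 and 321 to 358 FPKM, and 2 of the 6 tested fell. Erythroid markers summed to 231 to 313 and 90.2 to 157 FPKM, and 3 of 6 fell. Markers of melanocytes, immune cells, skeletal muscle, endothelium and Merkel cells summed to at most 22 FPKM in any library, and the Langerhans cell marker Cd207 was listed at 0 in all. The part of these differences in the chaperone results was not tested, and in bulk RNA fewer cells of a type cannot be told apart from less RNA per cell.

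Hspa1a and Hspa1b encode the stress-inducible HSP70 and lie side by side on the minus strand of chromosome 17, at chr17:34969359-34972156 and chr17:34956429-34959238 (GRCm38). Each has 1 exon. Their coding sequences, taken as the longest open reading frame from an ATG in the GENCODE transcript, were 99.4% identical, with 8 mismatches, and the translated proteins were 99.8% identical. Of all stretches of 50 bases in the Hspa1a transcript, 60.3% occur in another gene's transcript, and for Hspa1b 62.3%. How the authors' software divided such reads between the 2 genes is uncertain, so their sum is also given below. Hspa1a also overlaps Gm20481 on the opposite strand by 377 bases, and no source used here states whether counting used strand. Their promoters are shown because both genes fell together. The lines give the 250 bases before the RefSeq start (GRCm38.p6, minus strand, 5′ to 3′), at chr17:34972157-34972406 for Hspa1a and chr17:34959239-34959488 for Hspa1b, with matches to the heat shock element units GAANNTTC and TTCNNGAA in capitals.
Hspa1a: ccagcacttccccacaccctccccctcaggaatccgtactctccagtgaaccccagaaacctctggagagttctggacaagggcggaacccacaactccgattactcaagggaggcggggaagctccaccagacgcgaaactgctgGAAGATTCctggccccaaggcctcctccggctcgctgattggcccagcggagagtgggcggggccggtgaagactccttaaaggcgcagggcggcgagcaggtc
Hspa1b: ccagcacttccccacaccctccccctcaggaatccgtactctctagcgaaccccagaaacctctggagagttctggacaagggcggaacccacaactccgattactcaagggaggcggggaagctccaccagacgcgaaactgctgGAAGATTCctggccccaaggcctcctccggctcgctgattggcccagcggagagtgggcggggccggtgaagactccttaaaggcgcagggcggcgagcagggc
Each holds 1 match, GAAGATTC, at -104 to -97 from the start. Over the RefSeq windows of 300 bases (250 before the start and 50 after it), the 2 promoters were identical at 296 positions. The substitutions from Hspa1a to Hspa1b, counted from 1 at the 5′ end of the window, were C44T, T47C, T249G and C276T. Both motifs read the same on the opposite strand, and 15.1% of all 32851 promoter windows hold at least 1 of them, so a match is a description only.

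Hspa1a stood at 67.97, 70.49 and 68.34 FPKM in the WT libraries and at 18.26, 20.09 and 12.54 FPKM in the mutant libraries. Every mutant library was far below every WT library, and mutant replicate 3 was the lowest. The mean fell from 68.93 ± 1.36 FPKM (SD, n = 3) to 16.96 ± 3.94 FPKM (SD, n = 3), a 4.06-fold lower level. The log2 difference was -1.99 (SE 0.147, limma adjusted p = 4.18e-05), and 0.624% of the genes tested had a larger difference in either direction. The authors' deposited interval around each value also separated the groups: the highest upper bound in the mutant was 26.45 FPKM and the lowest lower bound in WT 44.75 FPKM.

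Hspa1b stood at 84.69, 87.64 and 88.07 FPKM in WT and at 36.36, 38.07 and 27.45 FPKM in mutant libraries. The same mutant library, replicate 3, was again the lowest, and the groups lay far apart. The mean fell 2.56-fold, from 86.8 ± 1.84 to 33.96 ± 5.7 FPKM (SD, n = 3 each), with a log2 difference of -1.34 (SE 0.114, limma adjusted p = 8.14e-05). Its deposited intervals did not overlap between groups either, with a highest mutant upper bound of 50.31 FPKM and a lowest WT lower bound of 54.33 FPKM. For the other 8 genes the deposited intervals of WT and mutant libraries overlapped, for example for Hspb1 (lowest WT lower bound 187.8 FPKM, highest mutant upper bound 217.9 FPKM), Xbp1 (34.43 and 44.18 FPKM) and Hsph1 (highest WT upper bound 29.32 FPKM, lowest mutant lower bound 22.02 FPKM).

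Summed, Hspa1a and Hspa1b made up 153, 158 and 156 FPKM in WT and 54.6, 58.2 and 40 FPKM in mutant libraries. The sum, which does not depend on how shared reads were divided between this pair, was 3.06-fold lower in the mutant (log2 difference -1.61, SE 0.128, limma adjusted p = 5.74e-05). The ratio of Hspa1b to Hspa1a was 1.25, 1.24 and 1.29 in WT and 1.99, 1.89 and 2.19 in mutant libraries. It was thus higher in all 3 mutant libraries, a value that rests on the division of shared reads.

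Hspa8 encodes the constitutive HSP70 of the cytosol, which also uncoats clathrin vesicles. It was the most abundant of the 10 genes, at 1643, 1548 and 1227 FPKM in WT and 900, 939 and 1137 FPKM in mutant libraries. WT replicate 3 and mutant replicate 3 came closest to each other, and the groups did not overlap. The mean fell 1.48-fold, from 1473 ± 218 to 992 ± 127 FPKM (SD, n = 3 each), with a log2 difference of -0.57 (SE 0.147, limma adjusted p = 0.0154). The call ended without WT replicate 1 (adjusted p = 0.0557), WT replicate 2 (0.0606), mutant replicate 1 (0.0546) or mutant replicate 2 (0.0649), and after quantile normalization the difference was 0.05. The authors' intervals reached 68% to 96.7% of the value on each side, 73.2% of the 50-base stretches of the transcript occur in other genes, all 11 of them pseudogenes, and the gene holds Snord14c, Snord14d and Snord14e. Among the 110 genes tested with a mean of at least 1000 FPKM, 80.9% were lower in the mutant, with a median difference of -0.82.

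Measured against Hspa8 in the same library, Hspa1a and Hspa1b were still lower. Such a ratio removes a single scaling factor per library, but not a scaling that depends on level. Hspa1a and Hspa1b together equalled 9.29%, 10.2% and 12.7% of Hspa8 FPKM in WT and 6.07%, 6.19% and 3.52% in mutant libraries. The fall was thus larger for the inducible pair than for the constitutive gene in every pairing of a WT with a mutant library.

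Hsp90aa1 encodes the inducible cytosolic HSP90. It stood at 257.2, 249.5 and 217.1 FPKM in WT and at 159, 164.1 and 179.9 FPKM in mutant libraries. All mutant values lay below all WT values, with the replicate 3 libraries closest together. The mean fell 1.44-fold, from 241.3 ± 21.3 to 167.7 ± 10.9 FPKM (SD, n = 3 each), with a log2 difference of -0.52 (SE 0.0878, limma adjusted p = 0.00228). As a percentage of the constitutive partner gene Hsp90ab1 it was 18.2%, 17.7% and 16.8% in WT and 15.8%, 16% and 15.8% in mutant libraries, so relative to Hsp90ab1 the difference was small, 1.11-fold. Of the 50-base stretches of its transcript, 58.5% occur in 4 pseudogenes.

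Hspb1 encodes the small heat shock protein HSP25, an actin-binding chaperone long known in keratinocytes. Its promoter is shown for its pair of heat shock element matches, as the 250 bases before the RefSeq start at chr5:135887669-135887918 (GRCm38.p6, plus strand), with the matches in capitals.
Hspb1: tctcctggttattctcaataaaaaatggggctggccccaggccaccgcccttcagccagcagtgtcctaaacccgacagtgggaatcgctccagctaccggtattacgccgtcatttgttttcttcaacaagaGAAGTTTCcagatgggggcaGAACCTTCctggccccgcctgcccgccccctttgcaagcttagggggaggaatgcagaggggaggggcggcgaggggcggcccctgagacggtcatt
The matches were GAAGTTTC at -117 to -110 and GAACCTTC at -97 to -90. Hspb1 stood at 335.2, 300.2 and 288.5 FPKM in WT and at 152.3, 143.9 and 164.5 FPKM in mutant libraries. The lowest WT library was well above the highest mutant library. The mean fell 2.01-fold, from 308 ± 24.3 to 153.6 ± 10.3 FPKM (SD, n = 3 each), with a log2 difference of -0.999 (SE 0.0848, limma adjusted p = 8.17e-05). Relative to Hspa8 it was also lower, at 20.4%, 19.4% and 23.5% in WT and 16.9%, 15.3% and 14.5% in mutant libraries. Of its 50-base stretches, 51.6% occur in the pseudogene Hsp25-ps1.

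Dnajb1 encodes HSP40, the J-domain protein that delivers unfolded substrates to HSP70. It stood at 128.4, 124.4 and 111.2 FPKM in WT and at 145.8, 152.1 and 165.3 FPKM in mutant libraries. Every mutant library was above every WT library, opposite to Hspa1a and Hspa1b. The mean rose 1.27-fold, from 121.3 ± 8.97 to 154.4 ± 9.97 FPKM (SD, n = 3 each), with a log2 difference of 0.35 (SE 0.0801, limma adjusted p = 0.00947). It equalled 7.81%, 8.04% and 9.07% of Hspa8 in WT and 16.2%, 16.2% and 14.5% in mutant libraries, a 1.88-fold rise. That rise includes the 1.48-fold fall of Hspa8, whose call depended on scaling and on single libraries. Neither of its RefSeq promoter windows held a match to either heat shock element motif, which says only that these letters are not in those windows.

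Hsph1 encodes HSP110, a nucleotide exchange factor of HSP70 that is itself heat-inducible. Its promoter is shown beside those of the genes that fell, as the 250 bases before the upstream of its 2 RefSeq starts at chr5:149636337-149636586 (GRCm38.p6, minus strand), with the heat shock element match in capitals.
Hsph1: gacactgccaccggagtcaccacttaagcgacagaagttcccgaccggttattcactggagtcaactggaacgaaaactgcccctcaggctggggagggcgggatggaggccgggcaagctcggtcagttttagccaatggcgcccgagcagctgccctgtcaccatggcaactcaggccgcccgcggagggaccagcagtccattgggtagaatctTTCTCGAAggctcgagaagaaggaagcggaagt
The match was TTCTCGAA at -33 to -26. A match to the longer motif GAANNTTCNNGAA, searched on both strands, spans 36 to 48 bases after the start and joins the overlapping matches TTCTGGAA and GAAAGTTC, and 0.603% of all promoter windows hold that motif. Hsph1 stood at 22.3, 21.02 and 20.74 FPKM in WT and at 33.88, 32.49 and 33.69 FPKM in mutant libraries. Libraries of a group lay close together and the groups far apart. The mean rose 1.56-fold, from 21.35 ± 0.834 to 33.35 ± 0.755 FPKM (SD, n = 3 each), with a log2 difference of 0.62 (SE 0.0558, limma adjusted p = 0.00011). Relative to Hspa8 the rise was 2.31-fold, from 1.36%, 1.36% and 1.69% in WT to 3.76%, 3.46% and 2.96% in mutant libraries, which again includes the 1.48-fold fall of Hspa8. No 50-base stretch of Hsph1 occurs in another gene.

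**Figure D2:**
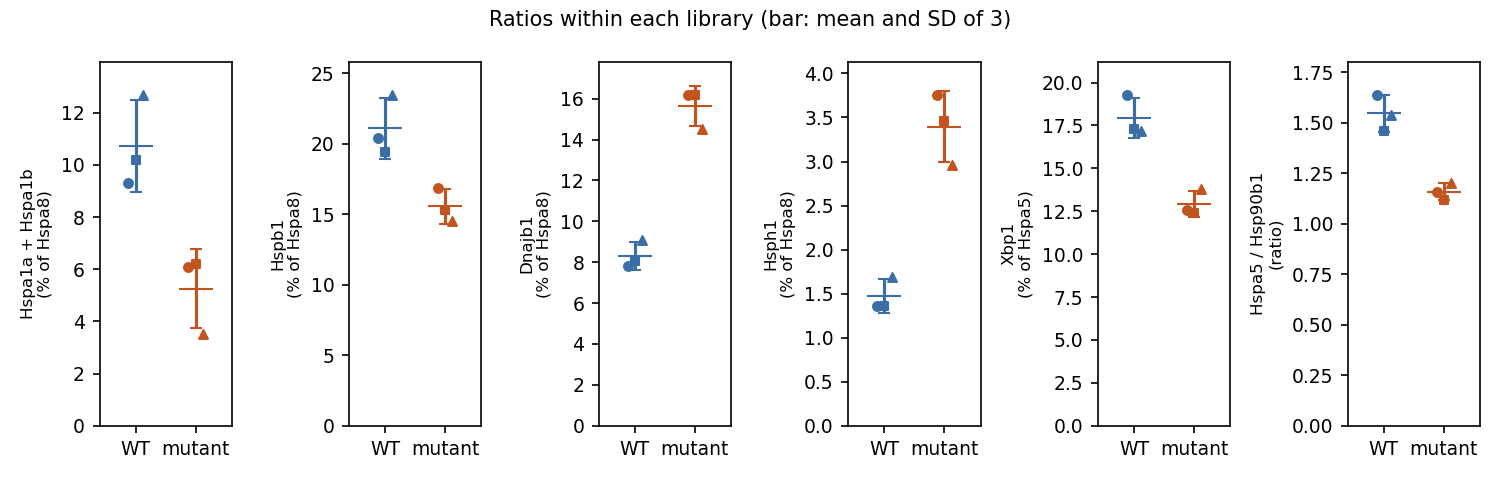
Ratios of FPKM values within each library, on linear axes that start at 0, with points for the 3 libraries of each group and bars for mean and SD. Hspa1a plus Hspa1b and Hspb1 fall relative to Hspa8, Dnajb1 and Hsph1 rise relative to it (Hsph1 from 1.47% to 3.4%), and Xbp1 and Hsp90b1 shift against Hspa5 in all 3 mutant libraries.

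Hspa5 and Hsp90b1 are the main HSP70 and HSP90 of the ER lumen. Their promoters are shown because both hold the ER stress response element, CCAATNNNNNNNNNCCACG, which 0.119% of all promoter windows hold on either strand. The lines give the 250 bases before the RefSeq start (GRCm38.p6), at chr2:34771840-34772089 on the plus strand for Hspa5 and chr10:86705445-86705694 on the minus strand for Hsp90b1, with the element in capitals.
Hspa5: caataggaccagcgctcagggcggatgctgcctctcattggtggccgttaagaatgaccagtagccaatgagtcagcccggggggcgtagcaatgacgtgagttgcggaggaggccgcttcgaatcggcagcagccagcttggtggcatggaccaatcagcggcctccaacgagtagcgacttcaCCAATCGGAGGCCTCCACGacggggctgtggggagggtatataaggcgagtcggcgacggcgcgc
Hsp90b1: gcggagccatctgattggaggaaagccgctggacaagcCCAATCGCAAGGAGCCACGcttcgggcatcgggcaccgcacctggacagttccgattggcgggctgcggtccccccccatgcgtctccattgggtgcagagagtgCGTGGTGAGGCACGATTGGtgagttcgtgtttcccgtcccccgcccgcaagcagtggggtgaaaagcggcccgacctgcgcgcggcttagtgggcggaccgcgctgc
Hspa5 held 1 match at -65 to -47, and Hsp90b1 held 2, at -212 to -194 and at -107 to -89, the latter on the opposite strand. The Xbp1 window held no match to this element or to TGACGTGG, the unfolded protein response element.

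Hspa5 stood at 317.3, 294.5 and 300.9 FPKM in WT and at 246, 240.9 and 243.8 FPKM in mutant libraries. The mutant libraries lay close together and all below WT. The mean fell 1.25-fold, from 304.2 ± 11.7 to 243.6 ± 2.55 FPKM (SD, n = 3 each), with a log2 difference of -0.32 (SE 0.0665, limma adjusted p = 0.00587). This call depended on how libraries were scaled to each other, as set out below.

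Hsp90b1 stood at 193.6, 201.2 and 195.6 FPKM in WT and at 211.4, 215.2 and 203.8 FPKM in mutant libraries. The mutant libraries lay above WT by a small margin. The means were 196.8 ± 3.94 and 210.1 ± 5.81 FPKM (SD, n = 3 each), and the log2 difference of 0.09 (SE 0.0623) did not pass (limma adjusted p = 0.25). The gene overlaps 1810014B01Rik on the opposite strand by 270 bases. The ratio of Hspa5 to Hsp90b1 was 1.64, 1.46 and 1.54 in WT and 1.16, 1.12 and 1.2 in mutant libraries, so the balance of the pair shifted toward Hsp90b1 in all mutant libraries, 1.33-fold on average.

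Xbp1 encodes a transcription factor that Ern1 activates by splicing its mRNA, and the table does not separate the spliced form. It stood at 61.11, 50.85 and 51.8 FPKM in WT and at 31.1, 29.94 and 33.62 FPKM in mutant libraries. All mutant values were well below all WT values. The mean fell 1.73-fold, from 54.59 ± 5.67 to 31.56 ± 1.88 FPKM (SD, n = 3 each), with a log2 difference of -0.77 (SE 0.0841, limma adjusted p = 0.00029). It equalled 19.3%, 17.3% and 17.2% of Hspa5 in WT and 12.6%, 12.4% and 13.8% in mutant libraries.

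The 10 genes summed to 3110, 2950 and 2570 FPKM in WT and to 1930, 1980 and 2200 FPKM in mutant libraries, or 0.396% and 0.354% of total FPKM on average. In WT the order of levels was Hspa8, then Hspb1 and Hspa5 with overlapping values, Hsp90aa1, Hsp90b1, Dnajb1, Hspa1b, Hspa1a, Xbp1 and Hsph1. In the mutant it was Hspa8, Hspa5, Hsp90b1, then Hsp90aa1, Dnajb1 and Hspb1 with overlapping values, then Hspa1b, Hsph1 and Xbp1 with overlapping values, and Hspa1a last. Hspb1 thus moved from beside Hspa5 to beside Dnajb1, and Hsph1 from the lowest place to beside Hspa1b.

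Abundant genes as a whole tended to be lower in the mutant. Among the 751 genes tested with a mean of at least 100 FPKM, 46.3% were lower and 6.66% higher, with a median difference of -0.26, and 6 of the 10 chaperone genes are among them. Dnajb1 was 1 of the 50 that were higher. Among the 3156 genes with a mean of 20 to 100 FPKM, which include Hspa1a, Hspa1b, Hsph1 and Xbp1, 26.5% were lower and 20.8% higher, with a median of -0.02.

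**Figure D3:**
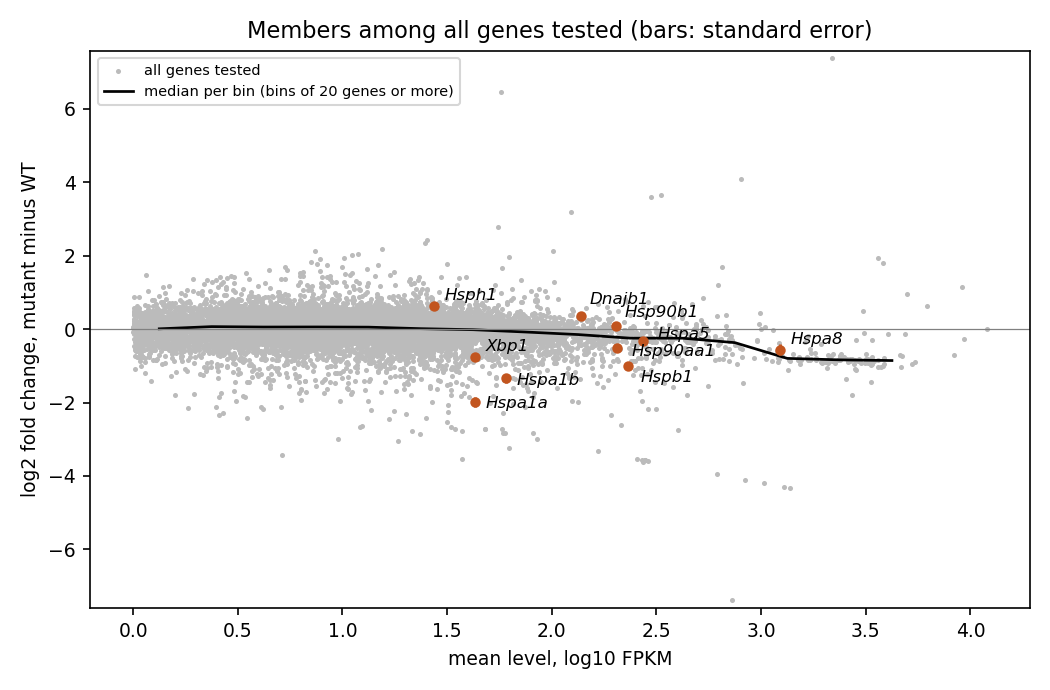
Log2 difference, mutant minus WT, against mean level in log10 FPKM for all 11385 genes tested (grey), with their median by level (black line) and the 10 chaperone genes in orange with standard errors. Hspa1a and Hspa1b lie far below the line and Hsph1 and Dnajb1 above it, whereas Hspa8, at -0.57, lies above the median of genes of its level.

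Scaling between libraries set the calls of Hspa5 and Hsp90b1, and in part that of Hspa8. Hspa8 also lost its call in several fits that left out 1 library, as given above. Bringing all libraries to 1 total FPKM moved the median of all genes to 0.30, and the share of called genes that were higher from 50.5% to 86.5%. The log2 difference of Hspa5 was then 0.01 (limma adjusted p = 0.925) and that of Hsp90b1 0.42 (adjusted p = 0.00821). Relative to the shifted median, these were -0.29 for Hspa5 and 0.12 for Hsp90b1. Hspa8 was still called lower at the same total (log2 difference -0.235, limma adjusted p = 0.0159), but not at the same total over genes of at least 200 bases (-0.19, adjusted p = 0.0513). After quantile normalization the differences were 0.08 for Hspa5 (adjusted p = 0.435), 0.42 for Hsp90b1 (adjusted p = 0.00451) and 0.05 for Hspa8 (adjusted p = 0.528). Hspa1a, Hspa1b, Hspb1, Hsp90aa1 and Xbp1 were called lower, and Dnajb1 and Hsph1 higher, under all 4 other scalings tried, but the size of several differences moved. That of Hsp90aa1 shrank from -0.52 as deposited to -0.21 after quantile normalization, -0.19 at the same total and -0.145 at the same total over genes of at least 200 bases (limma adjusted p = 0.0104, 0.0321 and 0.0355). That of Xbp1 was -0.71, -0.45 and -0.40 under the same 3 scalings, and that of Hspb1 -0.67, -0.67 and -0.62. Relative to the median of all genes under the same total, the differences were -0.49 for Hsp90aa1, -0.75 for Xbp1 and -0.97 for Hspb1. The rise of Dnajb1 grew from 0.35 to 0.59, 0.68 and 0.72, and that of Hsph1 from 0.62 to 0.66, 0.94 and 0.98.

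**Figure D4:**
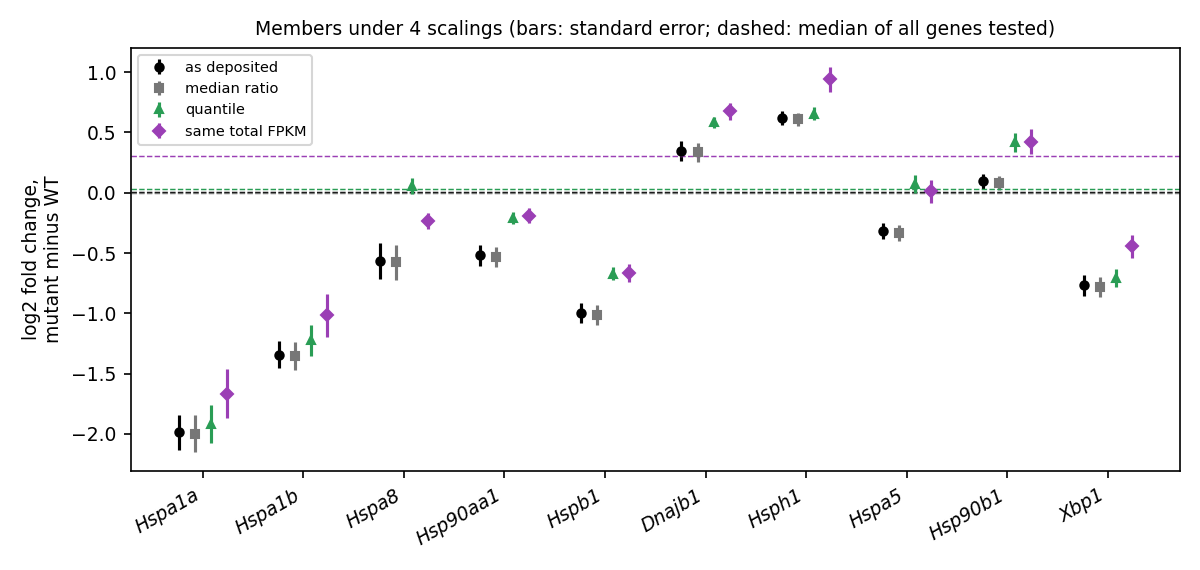
Log2 difference, mutant minus WT, of each gene under 4 scalings of the libraries, with standard errors and dashed lines at the median of all genes tested under each. Hspa1a stays between -1.997 and -1.665 and Hsph1 between 0.61 and 0.94, whereas Hspa5 moves from -0.33 to 0.08 and Hsp90b1 from 0.08 to 0.42.

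Chaperone genes were also followed in 12 lists by compartment and role, which include the 10 genes. Outside the 10 genes, 148 list genes were tested, of which 28 were higher and 33 lower (18.9% and 22.3%), with a median of -0.03. These shares lie near those of all genes tested. List counts under another setting stand beside the shares of all genes tested in it. These were 26.5% higher and 21.2% lower after quantile normalization, and 47.3% and 7.35% at the same total. They were 57.8% and 7.35% at the same total over genes of at least 200 bases, and 31.1% each with library weights. The heat shock factor list had 3 tested genes, Hsf1, Hsf2 and Hsbp1, and limma called none of them (0 at an unadjusted p under 0.05). Their differences were between -0.104 and -0.001 in the deposited scaling, and 2 of the 3 were called higher after scaling to the same total.

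In the list of cytosolic HSP70, HSP110 and HSP90 genes, 7 of 11 were lower and 2 higher, with a median of -0.52. Only 6 of the 11 lie outside the 10 genes, and of those Hspa4l, Hspa2 and Hsp90ab1 were lower and Hspa14 higher. The counts over all 11 changed with scaling. These counts were 5 lower and 4 higher after quantile normalization, 5 and 3 at the same total, and 4 and 3 at the same total over genes of at least 200 bases. Beside the genes above, Hspa4l, an HSP110 relative, fell 1.83-fold, from 7.438 ± 0.856 to 4.057 ± 0.172 FPKM (SD, n = 3 each). Hspa2 fell 1.8-fold and Hsp90ab1 1.3-fold, from 1370 to 1056 FPKM, though Hsp90ab1 was higher after quantile normalization (log2 difference 0.27, adjusted p = 0.0103). Hspa14, an HSP70 bound to ribosomes, rose 1.22-fold. Among 10 cytosolic J-domain genes, 2 rose and 3 fell, against 4 higher and 3 lower after quantile normalization, 5 and 1 at the same total, and 7 and 1 at the same total over genes of at least 200 bases. Dnajc2, the ribosome-bound partner of Hspa14, rose 1.33-fold, from 19.82 to 26.28 FPKM, whereas Dnajb4 fell 1.49-fold, Dnaja1 1.45-fold and Dnajb5 1.45-fold.

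Small heat shock protein genes were lower in 4 of the 5 tested, with a median of -0.51, and none was higher (0 at an unadjusted limma p under 0.05). Beside Hspb1, Hspb8 fell 1.43-fold, from 45.46 ± 2.89 to 31.79 ± 2.99 FPKM (SD, n = 3 each), Cryab 1.44-fold and Hspb2 1.92-fold. Cryab and Hspb2 share a locus in the table, so their reads may not be separable. After scaling to the same total 1 of the 5, Hspb1, was still called lower.

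Among 19 co-chaperones of HSP70 and HSP90, 5 rose and 4 fell, with a median of 0.05. Bag3, which links HSP70 to small heat shock proteins and is heat-inducible, fell 1.59-fold, from 39.92 ± 1.24 to 25.1 ± 0.603 FPKM (SD, n = 3 each). Bag2, an inhibitor of HSP70-linked ubiquitination, rose 1.69-fold, from 5.369 ± 0.276 to 9.068 ± 0.769 FPKM (SD, n = 3 each). Bag5 fell 1.38-fold and Unc45a 1.22-fold, and Ahsa2 fell from 15.91 to 14.22 FPKM. The HSP90 partners Ahsa1, which speeds its ATPase, Fkbp4, Fkbp5 and Chordc1 rose 1.21-fold to 1.28-fold. The count of higher genes was 3 without mutant replicate 2, and 12 after scaling to the same total. Of the 19 alternatives, Bag5 lost its call in 2, Unc45a turned positive in 2, and Ahsa2 lost its call in 9 and turned positive in 2. Ahsa1, Fkbp4, Fkbp5 and Chordc1 lost theirs in 2 to 5, whereas Bag3 and Bag2 kept theirs in all.

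Of 14 genes of the cytosolic chaperonin and prefoldin, 3 fell, Pfdn5, Cct4 and Pfdn4, and none rose by limma (0 at an unadjusted p under 0.05). The count of lower genes was 6 without WT replicate 3 and 7 without mutant replicate 3, and after scaling to the same total 6 were called higher and 1 lower. Of 11 mitochondrial genes, 2 rose and 2 fell, against 6 higher and 1 lower at the same total and 8 and 1 at the same total over genes of at least 200 bases. Grpel2, a nucleotide exchange factor of mitochondrial HSP70, fell 2.14-fold, from 33.56 ± 1.1 to 15.71 ± 1.42 FPKM (SD, n = 3 each), and kept its call in all 19 alternatives. The chaperonin Hspd1 rose 1.2-fold, from 152 to 182.7 FPKM, and Dnaja3 1.22-fold, whereas Hspe1, the cofactor of Hspd1, fell 1.3-fold, from 289.4 to 222.1 FPKM. Without WT replicate 1 or mutant replicate 2, 1 gene was higher and 1 lower.

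ER chaperones were split, with 5 of 19 higher and 6 lower and a median of 0.05. The 5 that rose were Dnajc3 (1.5-fold), Creld2 (1.5-fold), Hyou1 (1.39-fold), Sdf2l1 (1.38-fold) and Dnajb11 (1.24-fold). Dnajc3 and Dnajb11 are J-domain partners of Hspa5, and Hyou1 is its HSP110-type exchange factor. Dnajb9, another J-domain partner, fell 2.18-fold, from 26.77 ± 4.23 to 12.28 ± 1.25 FPKM (SD, n = 3 each), and Sdf2, a relative of Sdf2l1, fell 1.8-fold. Sil1, the other exchange factor of Hspa5, fell 1.47-fold, Dnajc1 1.28-fold and the collagen chaperone Serpinh1 1.2-fold. Serpinh1 had no call in any of the 3 other scalings that moved Hspa5. Of the 19 alternatives, Sil1 lost its call in 2, and Dnajc1 lost its call in 2 and turned positive in 1. Sdf2, Dnajb9 and the 5 genes that rose kept their calls in all 19. After scaling to the same total 13 of the 19 were higher and 2 lower, where 47.3% of all genes tested were higher and 7.35% lower.

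Among 14 disulfide isomerases and oxidases, 4 rose, Ero1l (1.37-fold), Tmx1 (1.23-fold), Txndc11 (1.22-fold) and Pdia4 (1.2-fold), and none fell by limma (1 at an unadjusted p under 0.05, Pdia6), though 2 were called lower with library weights. Higher calls in this list numbered 7 after quantile normalization, 10 at the same total and 12 at the same total over genes of at least 200 bases. Of 17 genes of ER-associated degradation, 5 rose and 2 fell. Sel1l and Syvn1, which form the core ubiquitin ligase complex, rose 1.55-fold and 1.31-fold, Derl2 1.48-fold, Nploc4 1.29-fold and Edem2 1.15-fold, whereas Ube2j1 fell 1.46-fold and Herpud1 1.32-fold. Without WT replicate 1 or WT replicate 2, 3 rose and 1 fell. Higher and lower calls numbered 12 and 0 at the same total, 14 and 0 at the same total over genes of at least 200 bases, and higher calls 10 with library weights.

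Of 15 sensors and factors of the unfolded protein response, 6 fell and 3 rose, with a median of -0.06. Atf4, the factor made when eIF2α is phosphorylated, stood at 345.1, 321.5 and 282.8 FPKM in WT and at 164.7, 166 and 189.9 FPKM in mutant libraries, a 1.82-fold fall (limma adjusted p = 0.000328). Its target Ddit3 (CHOP) fell 1.64-fold. Ppp1r15a (GADD34), which directs a phosphatase to eIF2α, fell 1.87-fold, from 115.5 ± 8.93 to 61.71 ± 3.02 FPKM (SD, n = 3 each), and its constitutive relative Ppp1r15b fell 1.46-fold. Atf6 fell 1.39-fold, and its paralog Atf6b rose 1.13-fold, Mbtps2 1.35-fold and Creb3l1 1.35-fold. Atf6 and Ppp1r15b each lost their call in 2 of the 19 alternatives. The other sensors, Ern1 and Eif2ak3, were not called (log2 differences -0.053 and 0.25, limma adjusted p = 0.71 and 0.0806). The 6 lower calls, Xbp1 included, numbered 6 in each fit that left out 1 library and 4 after scaling to the same total, while higher calls numbered 1 without WT replicate 1, WT replicate 2 or mutant replicate 1. Of 20 genes of ER translocation and signal peptidase, 2 rose, Spcs3 (1.28-fold) and Ssr1 (1.21-fold), and 3 fell, Sec62 (1.45-fold), Ssr4 (1.35-fold) and Ssr2 (1.22-fold). The lower calls numbered 5 without mutant replicate 3 and 1 without WT replicate 1, WT replicate 2, mutant replicate 1 or mutant replicate 2, and after scaling to the same total 11 were higher and 0 lower.

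Several of the smaller list differences lost their call when 1 library was left out. This held for WT replicate 1 with Hspd1, for WT replicate 2 with Txndc11, for mutant replicate 2 with Dnaja3, for WT replicates 1 and 2 with Syvn1, and for mutant replicates 1 and 2 with Chordc1 (limma adjusted p = 0.05 to 0.0689). Hsp90ab1, Pfdn4, Hspe1, Serpinh1, Ssr4 and Ssr2 lost theirs without replicate 1 or 2 of either group (adjusted p = 0.0523 to 0.125). Herpud1 lost it without WT replicate 1, WT replicate 2 or mutant replicate 2, Fkbp4 without WT replicate 2, WT replicate 3 or mutant replicate 2, and Creb3l1 without WT replicate 1, WT replicate 2 or mutant replicate 1 (adjusted p = 0.0522 to 0.105). Hspa14 lost it without any library but mutant replicate 1, Edem2 likewise, Atf6b without any but mutant replicate 2, and Ahsa2 without any of the 6 (adjusted p = 0.0502 to 0.136).

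**Figure D5:**
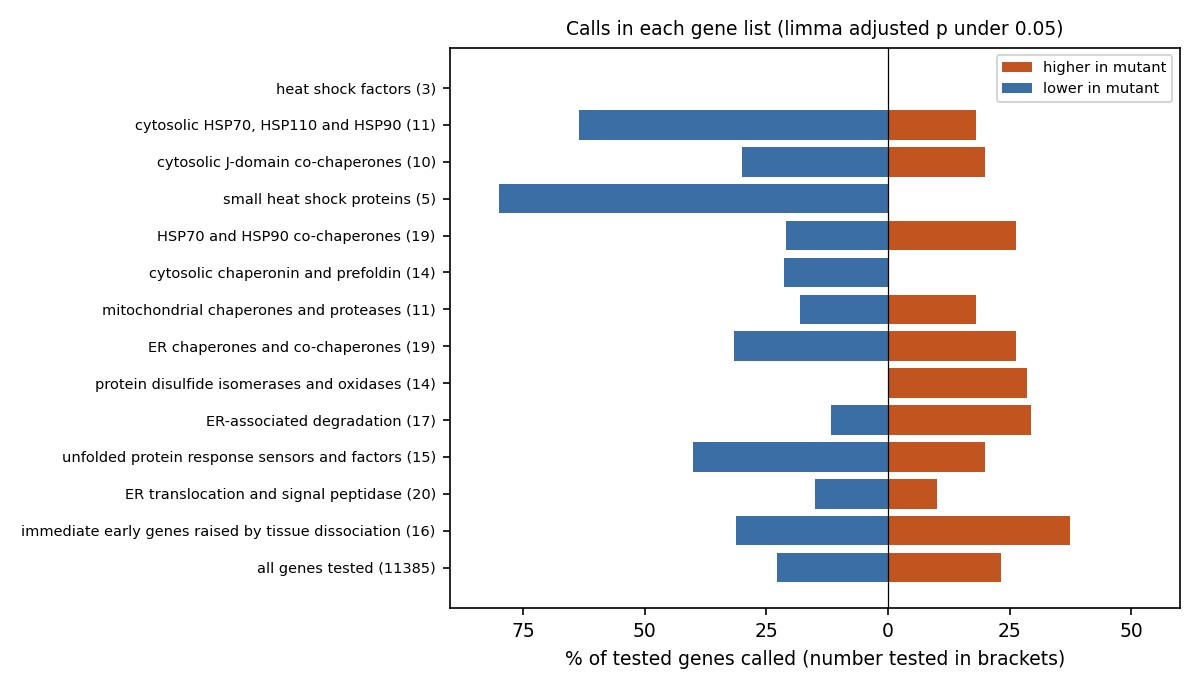
Percentage of the tested genes of each list called higher (orange, right) or lower (blue, left) in the mutant by limma, with the number tested in brackets and all 11385 genes at the bottom. The lists include the 10 chaperone genes. At the same total FPKM, 47.3% of all genes tested were called higher and 7.35% lower. The lists of cytosolic HSP70, HSP110 and HSP90 genes (7 of 11 lower) and small heat shock proteins (4 of 5 lower) hold more lower than higher calls in the deposited scaling (5 of 11 and 1 of 5 lower at the same total), and the disulfide isomerases hold 4 higher and 0 lower (10 higher at the same total).

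Heat shock genes and immediate early genes can both rise while tissue is dissociated and sorted, so a list of 16 immediate early genes was read beside them. Of these, 6 were higher and 5 lower in the mutant, with a median of 0.14, against 23.2% higher and 22.8% lower of all genes tested. They summed to 6514 to 6585 FPKM in WT and 6466 to 7114 FPKM in mutant libraries, so the summed ranges overlapped. The sum joins genes that rose with genes that fell, so its overlap does not mean that the single genes were alike. Egr1 rose 2.32-fold, from 375 ± 23.6 to 870.3 ± 119 FPKM (SD, n = 3 each), Fos 1.8-fold and Fosb 1.7-fold. Ier3 fell 2.81-fold, from 242.7 ± 26.2 to 86.34 ± 3.72 FPKM (SD, n = 3 each), Atf3 1.73-fold, from 1526 to 880.1 FPKM, and Klf6 1.49-fold. The part of dissociation in the chaperone results was not tested.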

How the data were processed

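RNA sequencing of sorted basal epidermal cells gave 6 libraries in 2 groups of 3. The deposited table holds FPKM per gene with an interval around each value, per the file headers. Reads were aligned by the authors with TopHat and quantified with Cufflinks, per the submitters' processing notes, which name the build mm9. The table's loci match GRCm38 gene positions and are read as such, with 1 added to each start. No source used here gives versions, the scaling of libraries or the use of strand, and read depth is unknown.

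The FPKM values as deposited were tested with limma 3.58.1 in R 4.3.3 on log2(FPKM + 1), over 11385 genes whose mean reached 1 FPKM (linear model, trended empirical Bayes, Benjamini-Hochberg over all of them, threshold 0.05, two-sided). Differences are mutant minus WT on that scale, which understates changes of low genes, and folds are ratios of mean FPKM. The procedure was tested on simulated data with few changed genes and no shift between libraries, so that test does not bear on scaling. Single values and within-library ratios were compared with an exact two-sided permutation test.

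The 10 genes and the 13 lists, markers and alternatives were chosen with earlier results of these data known. Of each list up to 4 genes were to be named, those called first, by smallest p. The others named in the text (Hspa2, Hsp90ab1, Hspa14, Ahsa1, Ahsa2, Fkbp4, Fkbp5, Chordc1, Hyou1, Sdf2l1, Dnajb11, Sil1, Dnajc1, Serpinh1, Herpud1, Syvn1, Edem2, Ddit3, Atf6, Atf6b, Mbtps2, Creb3l1, Ern1, Eif2ak3, Ssr2, Pdia6, Atf3, Fosb, Btg1 and Jun) were chosen after their values were seen.

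Promoters came from RefSeq (GRCm38.p6), which held 8 of the 10 genes, all but Hspa8 and Hsp90aa1. Transcripts came from GENCODE M21. Sequences were handled in Python 3.11.15 (pandas 2.3.3) and figures drawn with matplotlib 3.10.9. Alternatives covered the pseudocount, the filter, the scaling, the prior, library weights, a replicate block, each library left out, Xist as a covariate, the threshold and the sum of Hspa1a and Hspa1b.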

Additional observations from a re-analysis of the deposited data

How the results depend on the processing

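Hspa1a, Hspa1b, Hsp90aa1, Hspb1, Hsph1 and Xbp1 kept direction and call under every alternative run. Over these, 5 to 7 of the 10 genes were lower and 1 to 3 higher. With the replicate number as a block (replicate block), 1 was higher and 5 lower: Hspa8 (adjusted p = 0.0793), Dnajb1 (0.0539) and Hspa5 (0.0567) lost their calls, as did 19 of the 72 called list genes. The numbers share no stated source, so they were not taken as pairs. The deviations of same-numbered libraries correlated at 0.127, 0.122 and -0.007, and those of all other pairings at -0.157 to 0.062. The values for replicates 1 and 2 were thus the highest, whereas WT replicate 3 correlated best with mutant replicate 1 (0.062). Whether the libraries are paired cannot be decided from these values. Over all genes, 5396 were higher and 839 lower when scaled to the same total FPKM, 6599 and 839 when that total left out genes under 200 bases, and 1554 and 1634 at a threshold of 0.01. Leaving out 1 library gave 1922 to 2597 higher and 1957 to 2610 lower. Differences that turned positive, cause not tested, were as follows. Quantile normalization gave Hspa8 0.054, Hspa5 0.076, Hsbp1 0.066, Hsf1 0.029, Hsp90ab1 0.265, Cct5 0.106, Serpinh1 0.003 and Jun 0.159. The same total gave Hspa5 0.011, Hsbp1 0.302, Hsf1 0.319, Hsf2 0.19, Unc45a 0.041, Ahsa2 0.159, Cct5 0.041, Serpinh1 0.069, Ssr2 0.043 and Btg1 0.077. The total without short genes gave Hspa5 0.056, Hsbp1 0.346, Hsf1 0.363, Hsf2 0.23, Hsp90ab1 0, Unc45a 0.085, Ahsa2 0.202, Cct5 0.086, Dnajc1 0.02, Serpinh1 0.114, Ssr2 0.088, Btg1 0.121 and Jun 0.044, and Hspa8 lost its call (adjusted p = 0.0513). Both shift all genes upward, by 0.303 and 0.343 at the median. Library weights gave Hsf1 0.016, and the Xist covariate gave Hsbp1 0.016. Leaving out 1 library gave -0.091 to 0.028 for Hsbp1 and -0.027 to 0.014 for Hsf1. Of 1442 further values of list genes, 1242 kept direction and call and 160 lost a call. No fold of a within-library ratio moved beyond the combined SD of the groups when 1 library was left out. Leaving out 1 of 3 values can hardly pass that limit, so nothing is concluded from it. Depth is unknown, so no counting limit can be given.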
